A study of Mus musculus with 3 samples.

Results

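Gphn, which encodes gephyrin, and 7 GABA receptor genes (Gabra2, Gabra5, Gabrb1, Gabrb2, Gabrg1, Gabrg3 and Gabbr2) were examined for binding of the chromatin remodeller ATRX in cultured mouse neurons. They are 8 of 21887 protein-coding genes in the annotation used. Each gene was taken with 5 kb on either side, and every deposited ATRX peak that touched this span by at least 1 bp was counted. The spans held 151 of 105674 peaks in the MICAL1-FL list and 135 of 112153 peaks in the control list. The genes were selected on their peak numbers in these same lists, so those numbers are given as a description and no test is attached to them.

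The MICAL1-FL neurons had received MICAL1-FL and the control neurons mCherry, in both cases by lentiviral infection on day 5 in vitro, and both were collected on day 14 in vitro. Both cultures came from embryos of C57BL6/J mice, taken at E15.5 to 17.5. Chromatin was cut enzymatically, precipitated with an antibody against ATRX and read by paired-end sequencing, with input DNA for background. The only input sample is titled as input of control neurons, and no input of MICAL1-FL neurons is listed. The labels spell out neither FL nor the promoter that drives the transgenes, nor how many embryos were pooled, and the medium held serum. Each condition had 1 ChIP library, and differences between them have no replicate check. Identifiers in the MICAL1-FL list start with TBC_M2, which does not name the transgene, and control identifiers start with CTL. Each list was taken as its sample title says. Peak lists do not measure expression, so the neuronal label was not checked against markers. Peaks were present at 9 of 9 neuronal, 4 of 5 astrocyte, 2 of 5 microglial and 4 of 6 oligodendrocyte-lineage marker genes in the MICAL1-FL list, and at 8, 4, 3 and 4 of them in the control list. Of all protein-coding genes 61.2% and 64% had a peak, so these counts are no check of cell type.

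Gephyrin is the scaffold protein that holds glycine receptors and many GABA-A receptors at inhibitory synapses, and it also completes the synthesis of the molybdenum cofactor. GABA-A receptors are chloride channels commonly built of alpha, beta and gamma subunits, and most of their subunit genes lie in clusters. GABA-B receptors act through G proteins and need the subunits encoded by both Gabbr1 and Gabbr2. ATRX is known to deposit histone H3.3 at repeats and heterochromatin together with DAXX, and MICAL1 is a monooxygenase known to oxidise actin filaments.

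RefSeq promoter windows (GRCm38.p6), which run from 250 bases before to 50 after a start site, were at hand for all 8 genes, 11 windows in all. In these windows 6 of the 8 genes had an ATRX peak in either list, and none had one in both. Of all protein-coding genes with a window 20.1% had a peak in either list, and of those of at least 100 kb 40.4%. The 8 genes were selected on their peak numbers, so nothing is read from this difference. A MICAL1-FL peak touched 5 windows, those of Gphn, Gabra2 and Gabbr2 and 2 of the 3 windows of Gabrb2, which share 1 peak. A control peak touched 3, that of Gabra5 and both of Gabrb1. Of all 21263 windows of protein-coding genes, 10.6% were touched in the MICAL1-FL list and 10.3% in the control list. Of all 17492 protein-coding genes with such a window, 11.7% had a MICAL1-FL peak in it and 11.2% a control peak, and among the 1866 of them that are at least 100 kb long, as all members but Gabrg1 are, these shares were 24.5% and 24.3%. Both lists touched a window at 8.41% of the long genes. The windows of Gphn, Gabra2, Gabrb2 (its first) and Gabrb1 (its first) are printed because the peaks of these start sites are described next. The deep peak of Gphn, described further below, lies 124 kb after the start site of its window. They are written 5′ to 3′ on the strand of the gene, with the bases inside a peak in capitals.
Gphn, chr12:78226405-78226704, + strand, MICAL1-FL peak: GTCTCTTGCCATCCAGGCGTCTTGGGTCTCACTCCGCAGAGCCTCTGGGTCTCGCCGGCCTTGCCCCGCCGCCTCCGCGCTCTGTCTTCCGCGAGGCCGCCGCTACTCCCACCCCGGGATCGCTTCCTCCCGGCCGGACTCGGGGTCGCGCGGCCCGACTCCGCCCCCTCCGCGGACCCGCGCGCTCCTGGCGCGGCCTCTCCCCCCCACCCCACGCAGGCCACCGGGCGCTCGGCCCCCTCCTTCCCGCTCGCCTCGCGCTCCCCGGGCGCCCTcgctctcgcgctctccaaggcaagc
Gabra2, chr5:71095800-71096099, - strand, MICAL1-FL peak: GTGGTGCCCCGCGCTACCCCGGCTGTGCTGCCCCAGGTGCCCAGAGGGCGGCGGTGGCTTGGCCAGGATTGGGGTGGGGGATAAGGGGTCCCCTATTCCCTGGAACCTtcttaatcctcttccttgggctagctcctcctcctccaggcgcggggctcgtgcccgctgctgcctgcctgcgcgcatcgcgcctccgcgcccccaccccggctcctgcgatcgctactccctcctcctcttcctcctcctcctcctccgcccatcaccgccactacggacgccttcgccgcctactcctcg
Gabrb2, chr11:42420190-42420489, + strand, MICAL1-FL peak: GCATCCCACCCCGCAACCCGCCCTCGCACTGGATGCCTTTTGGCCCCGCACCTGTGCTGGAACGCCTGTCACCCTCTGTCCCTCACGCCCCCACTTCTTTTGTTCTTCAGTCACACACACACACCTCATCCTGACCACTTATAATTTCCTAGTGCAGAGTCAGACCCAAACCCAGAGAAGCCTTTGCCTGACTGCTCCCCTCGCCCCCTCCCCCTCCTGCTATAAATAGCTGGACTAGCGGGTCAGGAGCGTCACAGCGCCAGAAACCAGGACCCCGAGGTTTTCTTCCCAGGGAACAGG
Gabrb1, chr5:71657671-71657970, + strand, control peak: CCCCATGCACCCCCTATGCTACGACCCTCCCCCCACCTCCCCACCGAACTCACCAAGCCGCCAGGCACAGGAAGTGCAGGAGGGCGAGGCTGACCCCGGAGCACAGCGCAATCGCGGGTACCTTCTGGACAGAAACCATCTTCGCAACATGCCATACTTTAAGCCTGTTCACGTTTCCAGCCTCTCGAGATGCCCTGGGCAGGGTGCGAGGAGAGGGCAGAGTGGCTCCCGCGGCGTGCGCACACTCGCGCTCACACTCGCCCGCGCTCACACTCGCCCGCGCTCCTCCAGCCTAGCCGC

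The peak at the Gphn window covered its first 275 bases, the Gabra2 peak the first 108, and the windows of Gabrb2 and Gabrb1 lay wholly inside a peak. These windows differ in base composition. The Gphn window held 42 CpG dinucleotides at 77.0% G and C, and those of Gabra2 and Gabrb1 25 each at 70.0% and 66.0%. The Gabrb2 window held 11 at 59.0%. The median over all 21263 windows was 13 CpG at 56.3%. Across the 11 member windows CpG counts ran between 3, at Gabrg1, and 46, at Gabbr2. The letters GGGG, searched on both strands, were in 10 of the 11 windows and in 88.2% of all windows. The telomere repeat TTAGGG, searched likewise, was in 1 of the 11, that of Gabrg3, and in 10.5% of all. Neither list had a peak at the windows of Gabrg1 and Gabrg3.

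The deepest promoter peaks were those of the MICAL1-FL list at Gabrb2 and Gabra2. Depth is the number of ChIP fragments at a peak, worked back from the authors' fold and p-value, and the fold is the authors' ratio over background. Gabrb2 encodes the beta2 subunit, common in receptors of the adult brain. Its MICAL1-FL peak at chromosome 11 42420129 to 42420874 was 10 fragments deep over a background of 1.92, with a fold of 3.77 and a q-value of 0.105. Its summit lay 21 bp before the nearest start site. The control list had no peak there, and its first peak in Gabrb2, 5 fragments deep, had its summit 5.59 kb from the annotated 5′ end. The Gabrb2 peak also lies in the lncRNA gene Gm34591.

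Gabra2 encodes the alpha2 subunit, known from the axon initial segment and from early postnatal forebrain. The MICAL1-FL list had peaks on both sides of its start site. One at chromosome 5 71095992 to 71096741 was 9 fragments deep, with a fold of 3.82, a q-value of 0.139 and a summit 729 bp before the site. The other, at 71094796 to 71095303, was 7 fragments deep with its summit 633 bp after the site. A control peak at 71095330 to 71095782 lay between them, 8 fragments deep with its summit 113 bp after the site. Its background of 3.53 fragments was above the lowest of the list, 1.62, and its fold was 1.99. So both lists had peaks within 1 kb of the Gabra2 start, in 3 neighbouring stretches that did not overlap.

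Both lists had peaks at the Gphn start too. The MICAL1-FL peak at chromosome 12 78226178 to 78226679 was 7 fragments deep with its summit 83 bp before the start site. Control peaks of 5 and 8 fragments had summits 452 bp before and 443 bp after it. The first of them, at 78225926 to 78226209, overlapped the edge of the MICAL1-FL peak, and the second, at 78227009 to 78227518, was the deepest control peak of the gene. At Gabbr2 a MICAL1-FL peak of 5 fragments lay 214 bp after the start and a control peak of 5 fragments 493 bp before it. In the other direction, Gabrb1 had a control peak of 6 fragments 443 bp before its first start site and one of 5 fragments 169 bp after its second. The first of these also lies in Gabra4, so it cannot be given to Gabrb1 alone. The nearest MICAL1-FL peak to the second site had its summit 1047 bp after it and was 4 fragments deep. In all, 5 MICAL1-FL summits at 4 genes and 7 control summits at 5 genes lay within 1 kb of a start site. The matching shares over all genes are not given here, so nothing is read from these counts.

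**Figure D1:**
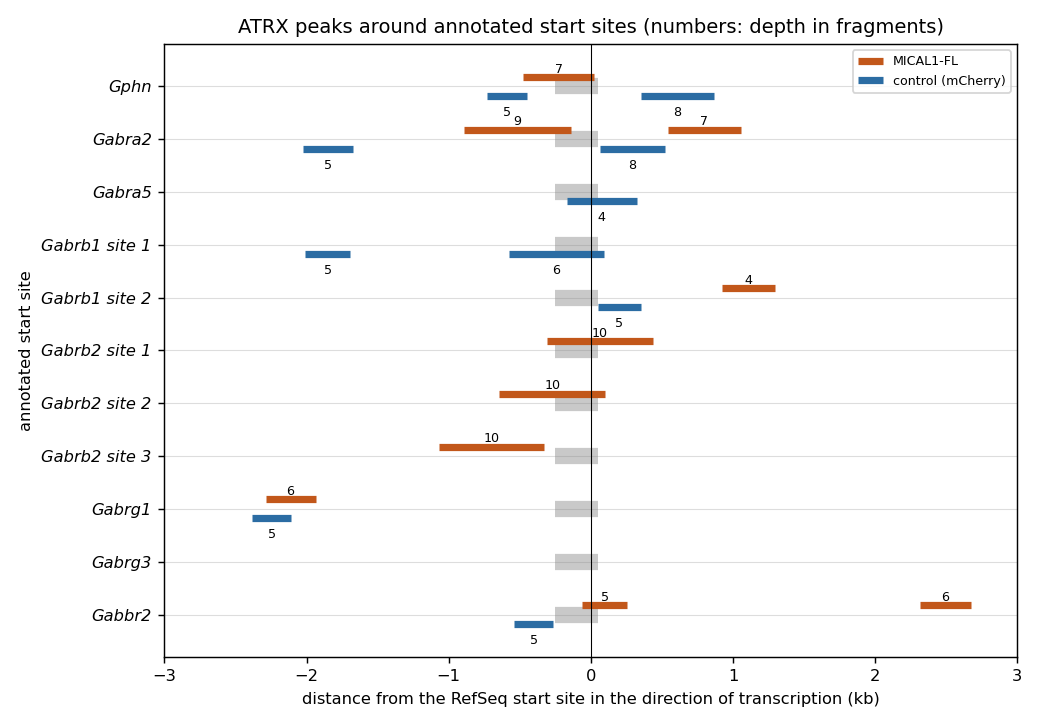
ATRX peaks around each annotated start site of the 8 genes, in kb from the site in the direction of transcription (x axis); grey blocks are the promoter windows, orange bars MICAL1-FL peaks, blue bars control peaks, and the numbers are depths in ChIP fragments. Peaks of both lists sit beside the starts of Gphn, Gabra2 and Gabbr2, and the peak of 10 fragments at Gabrb2 appears at each of its 3 start sites because they are neighbours.

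Gabra5 encodes the alpha5 subunit, known from extrasynaptic receptors of the hippocampus. Its RefSeq window has its start site well inside the annotated gene, and a control peak of 4 fragments touched it. Just before the far 5′ end both lists had a peak, and the peaks overlapped. The MICAL1-FL peak at chromosome 7 57591552 to 57592094 and the control peak at 57591191 to 57592300 were each 7 fragments deep, with folds of 3.06 and 3.05. Each was the deepest peak of Gabra5 in its list, and both also lie in another annotated gene, so they cannot be given to Gabra5 alone. Upstream of Gabrg1, whose gamma1 subunit is known from glia and a few brain regions, a MICAL1-FL peak of 6 fragments and a control peak of 5 fragments overlapped 2.09 and 2.25 kb before the start.

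One peak stood far above all others of the 8 genes. In the MICAL1-FL list Gphn carried a peak at chromosome 12 78350869 to 78351180, 41 fragments deep over a background of 4.04 fragments, with a fold of 8.33, a p-value of 4.24e-28 and a q-value of 1.93e-23. The other 285 peaks of the 8 genes reached at most 10 fragments in the MICAL1-FL list and 9 in the control list, with folds of 1.65 to 3.82. It was the only one with a q-value of 0.05 or less, a level that 0.38% of all MICAL1-FL peaks and 0.416% of all control peaks met. Of the 151 MICAL1-FL peaks 146 had a q-value of 1, and of the 135 control peaks 130.

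The Gphn peak had rank 2 by fold and rank 58 by p-value among all 105674 MICAL1-FL peaks. Among the 50260 that touched a protein-coding gene or its flanks it had rank 7 by p-value. Among the 68235 with no control peak within 3 kb it had rank 2. Within genes, 5 such MICAL1-FL peaks (the Gphn peak among them) and 5 control peaks with no MICAL1-FL peak within 3 kb were at least 41 fragments deep, so depth of this kind without a partner occurred in both lists. By p-value, 2 of these MICAL1-FL peaks (the Gphn peak again among them) and 0 of these control peaks reached its -log10 p of 27.4. The highest control value was 19.6. The background of 4.04 fragments under the peak was above the lowest in the list, 1.62. What raised it was not tested.

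In its gene context the peak was intragenic. Its summit, at 78351004, lay 134 kb from the annotated 5′ end of Gphn and 124 kb after the start site of the promoter window, 28.6% of the way along a gene of 467 kb, with 334 kb to the 3′ end. No other annotated gene overlapped it, and exons were not used here. The nearest MICAL1-FL peaks were 2.91 kb before it and 5.40 kb after it, with depths of 6 and 5 fragments. The nearest control peak ended 33.1 kb before it, at 78317725, and the next began 127 kb after it, at 78478336. This stretch of 161 kb without a control peak was the widest in Gphn and held the summits of 5 MICAL1-FL peaks. The MICAL1-FL list had a stretch of nearly the same size without a peak, 146 kb, which began at 78356839. The control peak at 78317448 to 78317725, 7 fragments deep, overlapped a MICAL1-FL peak of 6 fragments, and with the pair at the start site these were the only overlaps in Gphn.

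**Figure D2:**
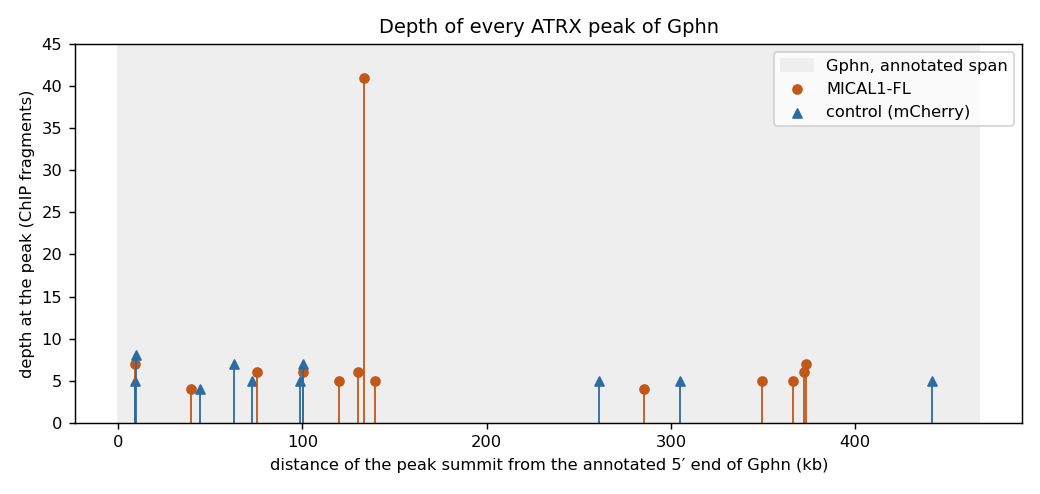
Depth in ChIP fragments (y axis) of each of the 13 MICAL1-FL peaks (orange circles) and 10 control peaks (blue triangles) of Gphn against the distance of the summit from the annotated 5′ end in kb (x axis); the grey band is the gene. The MICAL1-FL peak of 41 fragments stands alone, and all others are 4 to 8 fragments deep.

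Even with the deep peak counted, Gphn had few peaks for its length. It had 13 MICAL1-FL and 10 control peaks, which is 27.2 per Mb (14.5 to 46.6) and 20.9 per Mb (10.04 to 38.5). Intervals are 95% exact Poisson intervals and cover counting error only. In peak density Gphn had rank 1867 and 2057 of the 2429 protein-coding genes of at least 100 kb, whose medians were 44.7 MICAL1-FL and 45.7 control peaks per Mb. Whether fewer peaks per Mb mean less ATRX was not tested. Fewer cells with ATRX at a site and less ATRX per cell cannot be told apart in such libraries. By its pair of densities (distance on the log2 scale, over 2343 genes with peaks in both lists) Gphn lay nearest to Wdpcp, Dmxl2, Hpse2, Nek1 and Dph6, at distances of 0.03 to 0.06. Of these, Hpse2 had 17 MICAL1-FL and 13 control peaks over 602 kb of gene.

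Gabbr2, which encodes the GABA-B subunit that couples to G proteins, was at the opposite end. It had 35 MICAL1-FL and 40 control peaks, or 103 per Mb (71.8 to 143) and 118 per Mb (84.2 to 160.5), rank 80 and 84 of the 2429 long genes. Its peaks were spread over the gene, with no stretch of more than 34.8 kb free of MICAL1-FL peaks and 32.8 kb free of control peaks. They covered 4.14% and 4.57% of the span. Its median peak was 5 fragments deep in both lists. At least 7 fragments were reached by 3 MICAL1-FL and 10 control peaks, the deepest being a control peak of 9 fragments at chromosome 4 46780962 to 46781319. Inside the lncRNA gene Gm32208, which lies within Gabbr2, there were 7 MICAL1-FL and 2 control peaks. In Gm32135, also within Gabbr2, there were 1 and 2.

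The other genes lay between these. In the MICAL1-FL list their order by density was Gabrb1 (75.7 per Mb), Gabra5 (62.1), Gabra2 (61.03), Gabrb2 (44.8), Gabrg3 (44.1) and Gabrg1 (39.4). In the control list it was Gabrb2 (53.8), Gabrb1 (49.8), Gabrg3 (48.5), Gabra2 (40.7), Gabra5 (31.03) and Gabrg1 (29.5). Neighbours in either order had overlapping counting intervals, Gabbr2 and the gene after it included. The interval of Gabbr2 lay wholly above those of Gphn and Gabrg3 in both lists. Gabrg1 rested on 4 MICAL1-FL and 3 control peaks.

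**Figure D3:**
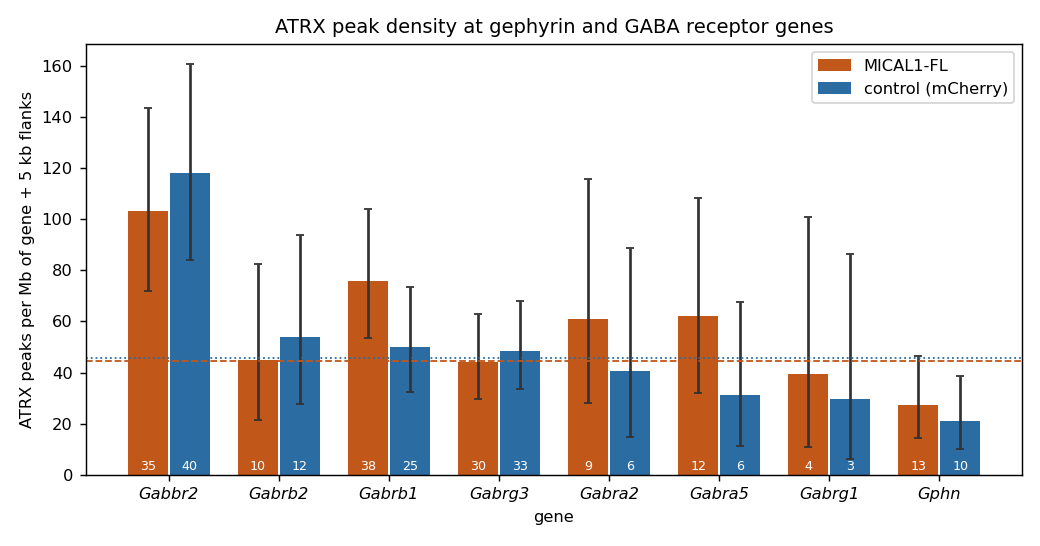
ATRX peaks per Mb of gene and 5 kb flanks (y axis) at each gene (x axis), MICAL1-FL in orange and control in blue, with 95% exact Poisson intervals and the number of peaks at the foot of each bar; the dashed and dotted lines are the MICAL1-FL and control medians of genes of at least 100 kb (44.7 and 45.7). Gabbr2 is the highest and Gphn the lowest in both lists.

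By ratio, peak numbers differed most between the lists at the alpha5, beta1 and alpha2 subunit genes, where the MICAL1-FL list had more, with counting intervals that include equal numbers. All protein-coding genes with their flanks held 50260 MICAL1-FL and 54233 control peaks, a ratio of 0.927, and each gene's ratio is given relative to it. A gene was counted as past the fold when this relative ratio was at least 1.5 in either direction and it had 10 or more peaks in all. Gabra5 had 12 MICAL1-FL and 6 control peaks, a relative ratio of 2.16 (0.750 to 7.01). Gabrb1 had 38 and 25, a relative ratio of 1.64 (0.965 to 2.83). Gabra2 had 9 and 6, a relative ratio of 1.62 (0.515 to 5.53). These 3 of 7 members with enough peaks were past the fold upward, where 20.7% of the 2602 genes with enough peaks were, and none was past it downward, where 19.5% were. With the members picked in view of these counts, nothing is read from the share.

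Gphn, at 13 and 10 peaks and a relative ratio of 1.403 (0.568 to 3.57), was the nearest below the fold among the 7. Gabrg3, which encodes the gamma3 subunit, had 30 and 33 peaks, a relative ratio of 0.981. Gabbr2 had 0.944 and Gabrb2, with 10 and 12 peaks, 0.899. All protein-coding genes with their flanks held 7752 MICAL1-FL and 9757 control peaks of at least 7 fragments. Relative to that base, the ratio of such peaks was 2.10 at Gabrg3, on 5 and 3 peaks, and 0.378 at Gabbr2, on 3 and 10. Gabrg1 had too few peaks to be counted. Over all 8 genes the 151 and 135 peaks gave a relative ratio of 1.21 (0.951 to 1.53), and without Gabrb1 it was 1.11 (0.845 to 1.45). The median relative ratio of the 7 genes was 1.403, against 0.997 over the 2602 genes. As the members were picked in view of these counts, nothing is read from this contrast.

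**Figure D4:**
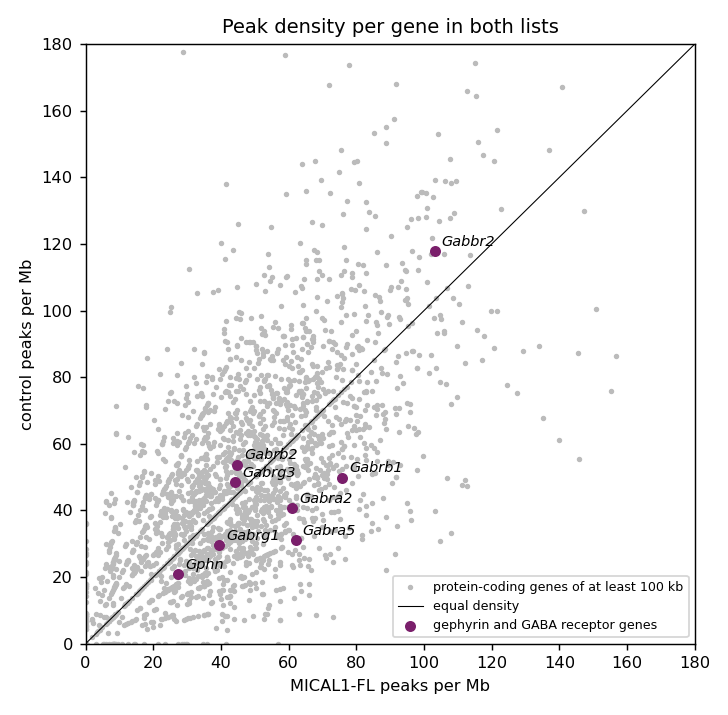
MICAL1-FL peaks per Mb (x axis) against control peaks per Mb (y axis) for the 8 genes (purple) and for the 2429 protein-coding genes of at least 100 kb (grey), of which 16 lie outside the axes; the line marks equal density. Gabra5, Gabrb1, Gabra2, Gphn and Gabrg1 lie below the line, and Gabrb2, Gabrg3 and Gabbr2 above it, with Gabbr2 far along it.

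Gabrb1, at 492 kb the second longest gene of the group, encodes the beta1 subunit, and most of its peaks were shallow, as elsewhere. Of its 38 MICAL1-FL peaks 36 were 4 to 6 fragments deep, and 2 reached 7. Of its 25 control peaks 3 reached 7. Over all peaks, 85.8% of MICAL1-FL and 83.3% of control peaks were at most 6 fragments deep. With peaks of at least 7 fragments alone, the ratio at Gabrb1 relative to such peaks of all protein-coding genes was 0.839, on the other side of 1. When the gene was divided into 5 equal parts from the 5′ to the 3′ end, these held 10, 7, 7, 5 and 9 MICAL1-FL summits and 2, 4, 3, 6 and 7 control summits, so the first part differed most. Its flanks held 0 and 3 more peaks. At Gabra5 and Gabra2, 1 and 3 MICAL1-FL peaks and 1 and 2 control peaks reached 7 fragments.

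Few peaks of either list met a partner in the other. Over the 8 genes 14 of 151 MICAL1-FL peaks (9.27%, 5.16 to 15.1) overlapped a control peak, and 14 of 135 control peaks (10.4%, 5.79 to 16.8) a MICAL1-FL peak, with exact Clopper-Pearson intervals. The shares over all peaks were 7.3% and 6.89%, and over peaks in genes of at least 100 kb 8.09% and 7.66%, which lie inside those intervals. Gabrb1 and Gabbr2 had 4 overlapping pairs each, Gphn and Gabrg3 had 2 each, Gabra5 and Gabrg1 had 1 each, and Gabra2 and Gabrb2 had none. The deepest of them was a control peak of 8 fragments at Gabbr2, chromosome 4 46929377 to 46929635, that met a MICAL1-FL peak of 5. In 8 of the 14 pairs each peak covered at least 50% of the other, and in 9 the summits lay within 250 bp. Over all MICAL1-FL peaks, 7717 overlapped a control peak, 3209 met the limit of 50% and 5044 that of 250 bp.

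Among the pairs in the body of a gene, the one in Gabrg3 at chromosome 7 56994679 to 56994963 was 7 fragments deep in the MICAL1-FL list and 5 in the control list, with both summits 392 kb into the gene. In Gabrb1 the pair at chromosome 5 71968925 to 71969223 was 4 and 5 fragments deep, 311 kb into the gene. The Gabbr2 pair at 46911040 to 46911821 was 6 and 5 fragments deep with summits 80.1 kb into the gene.

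Along the genes the peaks were spread over their whole length. Of 146 MICAL1-FL summits inside a gene, 36, 41, 25, 24 and 20 fell in 5 equal parts of its length from the 5′ to the 3′ end, and of 126 control summits 28, 25, 25, 24 and 24. The first part thus held 24.7% (17.9 to 32.5) and 22.2% (15.3 to 30.5), against 22.5% and 22.7% over 1866 genes of at least 100 kb with a known strand. The last part held 13.7% and 19.05%, against 19.04% and 18.4%. In the second part the MICAL1-FL list had 28.1%, against 19.8% in the control list and 19.7% over long genes in the MICAL1-FL list. Gabrg3 gave 11 of those 41 summits, and its control peaks were most frequent in the third part, with 12 of 33. A further 4 MICAL1-FL and 7 control summits lay in the 5′ flanks and 1 and 2 in the 3′ flanks.

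**Figure D5:**
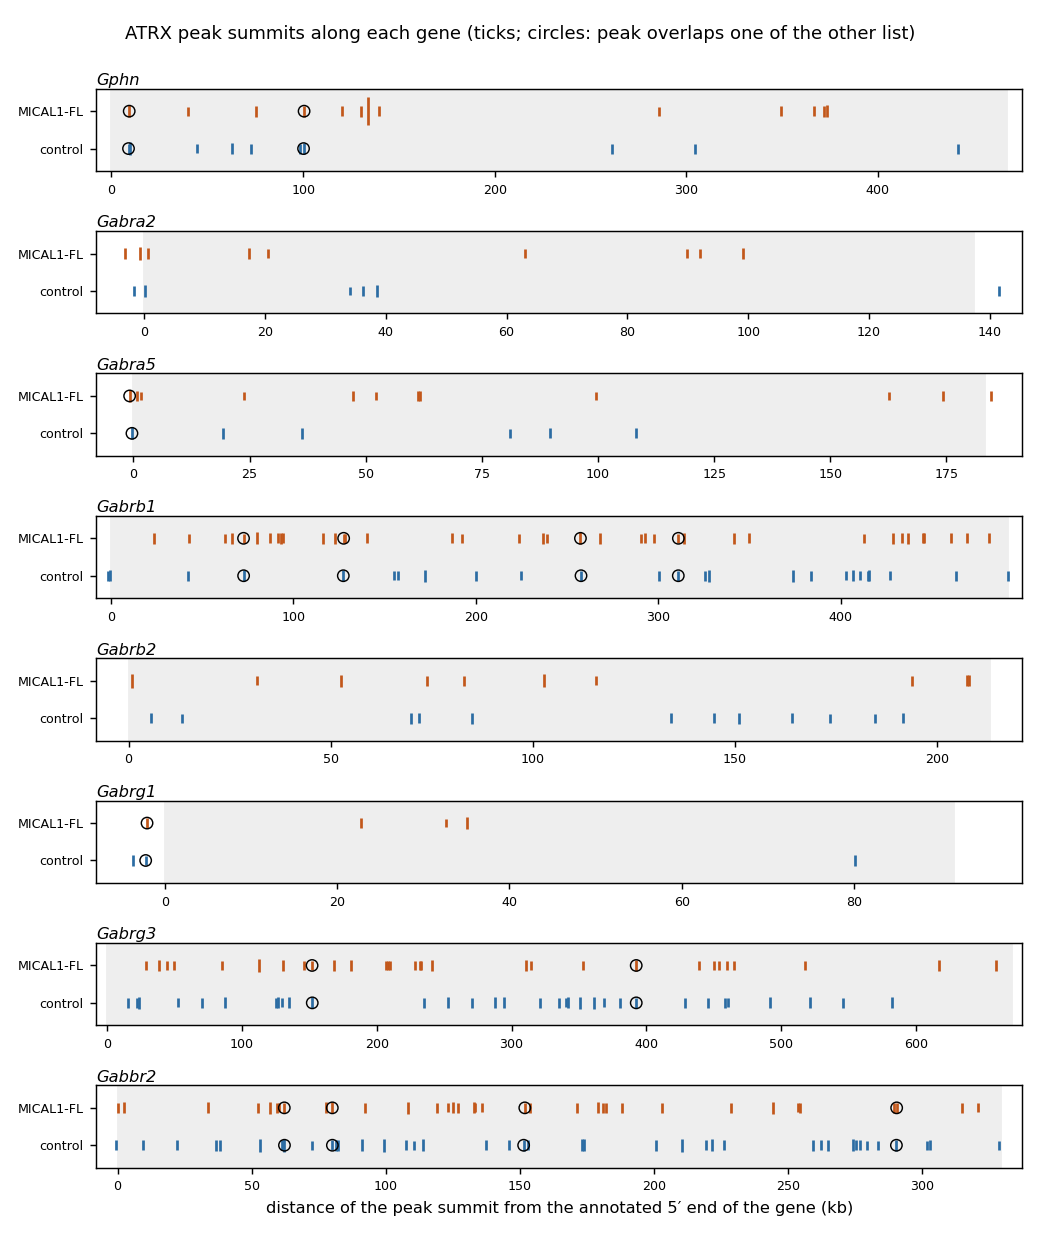
Peak summits along each gene in kb from its annotated 5′ end (x axis), MICAL1-FL in the upper row of each panel and control in the lower; the height of a tick grows with depth, circles mark peaks that overlap a peak of the other list, and the grey band is the gene. Circles are rare in every gene, and the tall tick in Gphn is the MICAL1-FL peak of 41 fragments.

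Depth within the 8 genes was close to that of the lists as a whole. The median was 5 fragments in both lists, for these peaks and for all peaks. Peaks of at least 7 fragments made up 13.9% of MICAL1-FL peaks (8.82 to 20.5) and 17.04% of control peaks (11.1 to 24.5), against 14.2% and 16.7% over all peaks. The background was at its lowest value, 1.62 fragments, under 110 of the 151 MICAL1-FL peaks and 85 of the 135 control peaks. Some peaks lay in other annotated genes. Of the 3 deepest control peaks of Gabrg3, with 7 fragments each, the one at chromosome 7 57026022 to 57026506 lay in the pseudogene Gm18642.

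On chromosome 5 the receptor gene cluster held peaks between as well as within genes. The stretch of Gabrg1, Gabra2, Gabra4 and Gabrb1 (70746047 to 72154572) had 74 MICAL1-FL and 57 control peaks, a relative ratio of 1.401. Its genes with flanks had 62.0 and 42.9 peaks per Mb and the parts between them 38.6 and 36.9. Gabra4, which encodes the alpha4 subunit and starts head to head with Gabrb1, had 1 and 4, of which 2 control peaks are also counted at Gabrb1.

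Of the 14 other GABA receptor genes, 12 had a MICAL1-FL peak and 11 a control peak, beside the 61.2% and 64% of all protein-coding genes. Gabbr1, the partner of Gabbr2, had 1 and 2 peaks over 28.3 kb, and Gabrr2, a rho subunit gene, 1 and 7. Of the 5 glycine receptor genes, 5 had a MICAL1-FL and 3 a control peak, with 8 and 15 peaks in all. Glrb, whose beta subunit binds gephyrin, had 2 and 5. All 9 genes of GABA synthesis, GABA transport and chloride transport had a peak in each list, 40 and 38 in all. Slc6a11, a GABA transporter gene, had 16 and 10 peaks (relative ratio 1.73). Slc32a1, the vesicular GABA transporter gene, had 6 and 4 (1.62), and both were past the fold. Before scaling to all protein-coding genes, their ratios had counting intervals of 0.683 to 3.94 and 0.356 to 7.23, which include equal numbers. Of all genes with enough peaks, 20.7% were past the fold upward and 19.5% downward. Gad1, which encodes a GABA-synthesising enzyme, had 1 and 8 peaks, too few to be counted. Of 16 genes of inhibitory postsynaptic proteins, GABA-B auxiliary subunits and molybdenum cofactor synthesis, 12 had a MICAL1-FL and 14 a control peak, 45 and 61 in all. Iqsec3, a gephyrin-binding exchange factor gene, had 3 and 8 (relative ratio 0.405) and was past the fold downward. The counting interval of its ratio before scaling, 0.0641 to 1.56, includes equal numbers. The neuroligin gene Nlgn2 had 0 and 2.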

How the data were processed

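ATRX ChIP-seq peak lists of MICAL1-FL and control (mCherry) neurons, 1 library each, were used. The 1 input sample, of control neurons, was not analysed here. The submitters' processing notes name MACS 1.4.2, Bowtie 1.3.0, ChIPseeker 1.26.2 and SAMtools 1.9 without their roles. No label or header names the build, and chromosome and scaffold names are those of GRCm38. In the deposited lists the score is 10 times -log10 p without its decimals, the fold is the authors' ratio over background, and -log10 p and -log10 q are the authors' own. The deposited summit offset gave the summit.

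Depth was recovered on the reading that the fold is (depth + 1) over (background + 1) and that p is Poisson, for depths above the one seen. This is an inference, and it gave depths within 0.05 of a whole number for 100% of peaks, 30 MICAL1-FL and 34 control peaks with very small p-values left aside. Tests on 4741 simulated peaks, built with the same formulas, recovered 100%, which checks the calculation and not this reading of the columns.

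Gene spans and promoter windows were RefSeq GRCm38.p6, and strand was taken from the windows. The members, lists and tests were chosen with earlier results of these data known. Named peaks are the deepest of a gene, those with q of 0.05 or less, those overlapping a peak of the other list and those within 1 kb of a gene end or start site, with examples given. Peaks in nested genes and in parts of a gene were singled out after their values were seen, as were Gabbr1, Gabrr2, Glrb, Gad1 and Nlgn2. Results for some genes of these lists are not reported here. Python 3.11.15 with numpy 2.4.6, pandas 2.3.3 and scipy 1.17.1 was used.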

Additional observations from a re-analysis of the deposited data

How the results depend on the processing

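Of 35 alternatives to the main values, 28 left the value within its counting interval or within 1.5 times. With peaks of at least 7 fragments alone, the 8 genes held 21 MICAL1-FL and 23 control peaks, and with a q-value of 0.05 or less 1 and 0. The share of overlapping peaks was 18.5% in the MICAL1-FL list and 20.7% in the control list when peaks up to 1 kb apart counted, and 19.05% among MICAL1-FL peaks of at least 7 fragments. Fewer peaks and a wider reach are built into these settings. Relative ratios were taken against all protein-coding genes under the same setting. The relative ratio over the 8 genes stayed between 1.11 and 1.24, the lower value without Gabrb1, a setting chosen after seeing the data. At Gabrb1 it was 0.839 with peaks of at least 7 fragments, on 2 and 3 peaks, and the same setting gave 0.378 at Gabbr2, on 3 and 10, and 2.10 at Gabrg3, on 5 and 3. For single genes, 83 alternatives stayed close to the main value and 35 moved away from it, nearly all under the limits on depth or q. A further 1, that of Gabrb1, was counted as a change of direction. Gabrg3, counted among those that moved, also crossed 1, from 0.981 to 2.10. Gabrb2, with 3 MICAL1-FL and 0 control peaks of at least 7 fragments, had no ratio under that limit. No paired analysis was possible because each condition had 1 library, and no library could be left out. Most peaks are 4 to 6 fragments deep, and at this depth a peak in a single list is no evidence of a difference in binding.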
